A study of Homo sapiens with 60 samples.

Results

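To see which genes respond early to cadmium, RNA of the human astrocytoma-derived cell line 1321N1 was compared between cells kept for 6 h in medium with 2.3 µM cadmium chloride and cells left non-treated for 6 h. Each group had 3 libraries, which were taken by their titles and make up 6 of the 60 libraries of the series. The same series holds cells given sodium metaarsenite at 2.55 µM and cells given mercury chloride at 20 µM. Treated and non-treated cells were harvested at 5 times between 1.5 h and 24 h, with 3 libraries for each of 20 groups. All cells are 1 unmodified line in serum-containing medium. For the treated cells, the medium was exchanged for medium with the metal 24 h after seeding. Whether the medium of the non-treated cells was exchanged as well is not given in the sources used here. The labels call the 3 libraries of a group technical triplicates, so the p values measure the spread between these libraries and may not cover that between independent cultures.

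Cadmium is a non-essential metal that enters cells through transporters for zinc, iron, and manganese and binds the sulfur of cysteine side chains. Cells are known to answer it with several stress programs: metal-responsive transcription through MTF1, which drives metallothioneins and the zinc exporter SLC30A1, the heat-shock response through HSF1, which drives chaperones, the antioxidant response through NRF2, and the integrated stress response through ATF4. Metallothioneins are small cysteine-rich proteins that hold zinc, copper, and cadmium, and in the brain astrocytes are a main source of them.

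Messenger RNA was sequenced from the 3′ end, so each transcript contributes reads near its polyadenylation site and the count does not grow with gene length. Between 2439814 and 3299824 reads were counted on genes in the 6 libraries, against 2215276 to 4404609 over all 60. Levels are given as CPM, the count scaled to a common library size, after TMM scaling, a correction for differences in library composition, and 3 counts in a library correspond to 0.894 to 1.22 CPM. Across genes, replicates of the 6 libraries correlated at 0.964 to 0.973. By the chi-square per degree of freedom of their counts, replicate 1 of cadmium differed from replicates 3 and 2 by 14.4 and 10.8, the highest values of all 60 replicate pairs, whereas replicates 2 and 3 differed by 3.12. Replicate 1 of cadmium also stood apart in the share of its counts on mitochondrial genes, which was 1.35% and the lowest of all libraries. The other 59 ranged from 1.91% to 7.94% with a median of 6.15%. The line showed the mesenchymal and glial genes VIM, CD44, and SOX9, whereas the astrocyte markers GFAP, AQP4, S100B, and ALDH1L1 were listed at 0 in all 6 libraries. A listed 0 is not proof of absence in this table, since NUSAP1 and the proteasome gene PSMA2, which dividing cells use, were at 0 in all 6 as well. The counting method left out reads that overlap more than 1 gene, and its part in these zeros was not tested. Of the other cell type markers, none of the endothelial genes had a count, 5 of 7 immune markers were at 0, and the summed epithelial level was 68.4 to 70.9 CPM in non-treated and 57.6 to 61.4 CPM in cadmium-treated cells. The summed neuron marker level was 14.3 to 20.6 and 21.2 to 25.1 CPM, in the same order. KRT8, KRT18, GAD1, and SYT1 were the members tested in these sets, and none of the 4 passed.

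After 6 h of cadmium, 62 genes were higher and 15 were lower, out of 12341 with enough counts to be tested. To be called, a gene had to have an adjusted p under 0.05 and to differ by more than 1 on the log2 scale, where LFC stands for the log2 fold change of cadmium over non-treated cells. Every adjusted p comes from edgeR's quasi-likelihood test, fitted to all libraries at once and corrected by the method of Benjamini and Hochberg. These calls are 0.502% of the genes tested for the higher and 0.122% for the lower genes. By the adjusted p alone, 198 genes rose (1.6%) and 55 fell (0.446%), and the median LFC of all genes tested was -0.01. In the gene lists below, a member is said to rise, fall, or pass by the adjusted p alone, without a limit on the LFC. Each count of members is to be read against these 1.6% and 0.446% of all genes tested. The lists were chosen with earlier results of these data known. In all 62 higher genes, every cadmium library lay above every non-treated one, as did 8.63% of all genes tested, and in 14 of the 15 lower genes every cadmium library lay below, as did 9.02% of all. Among the higher genes, 56 coded for proteins, 5 were long non-coding RNAs, and 1 was a pseudogene. The median LFC was 1.53 for the higher and -1.37 for the lower genes, and 18 genes had an LFC above 2. Without replicate 1 of cadmium, 61 genes were higher and 14 lower. With mitochondrial genes left out of the counts, an alternative added after the low share was seen, the numbers were 63 and 13. Fewer transcripts per cell and fewer cells of a kind cannot be told apart in such bulk samples.

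**Figure D1:**
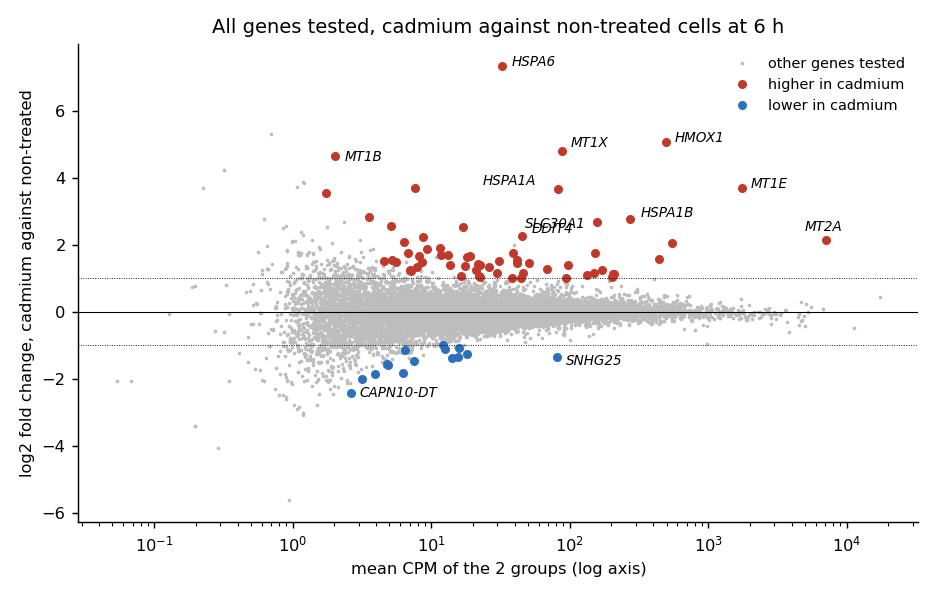
Log2 fold change of cadmium against non-treated cells at 6 h (vertical axis) against the mean CPM of both groups (horizontal log axis) for the 12341 genes tested. The 62 higher genes (red) reach up to an LFC of 7.34 for HSPA6, whereas the 15 lower genes (blue) lie at low levels but for SNHG25, and dotted lines mark an LFC of 1 and -1.

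Of 12 metallothionein genes, 4 had enough counts to be tested. MT1B had enough at 6 h in the cadmium libraries alone, so its rise was partly fixed in advance. All 4 rose. They lie in the cluster on chromosome 16 (GRCh38 as in the counted annotation), with MT2A at chr16:56608584-56609497, MT1E at chr16:56625475-56627112, MT1B at chr16:56651886-56653204, and MT1X at chr16:56682470-56684196, all on the plus strand. Their sequence before the start is shown because copies of the metal response element, the site to which MTF1 binds, are its known regulatory feature. The 250 bases upstream of MT2A (chr16:56608334-56608583, plus strand) and MT1X (chr16:56682220-56682469, plus strand) are from RefSeq on GRCh38.p14, 5′ to 3′ in the direction of transcription. Capitals mark matches of the core, TGCACNC or TGCGCNC on either strand.
MT2A: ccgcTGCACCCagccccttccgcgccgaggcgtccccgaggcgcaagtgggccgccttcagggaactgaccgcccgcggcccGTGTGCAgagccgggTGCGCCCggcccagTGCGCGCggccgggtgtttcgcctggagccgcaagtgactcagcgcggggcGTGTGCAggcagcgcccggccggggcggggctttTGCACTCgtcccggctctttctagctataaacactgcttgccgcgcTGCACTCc
MT1X: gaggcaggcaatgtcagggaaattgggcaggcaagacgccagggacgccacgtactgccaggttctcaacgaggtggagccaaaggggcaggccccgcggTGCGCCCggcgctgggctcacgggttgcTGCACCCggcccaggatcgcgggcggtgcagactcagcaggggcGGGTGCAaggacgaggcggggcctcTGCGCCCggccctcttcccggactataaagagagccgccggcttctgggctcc
MT2A had 7 matches and MT1X had 4.

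MT2A stood at 2540, 2591, and 2646 CPM in non-treated cells and at 11285, 11622, and 11751 CPM in cadmium-treated cells, an LFC of 2.16 ± 0.19 (SE, n = 3 against 3, adjusted p = 1.01e-13 by edgeR). MT1E went from 204, 250.4, and 289 CPM to 3174, 3108, and 3446 CPM, which is 13.1-fold (LFC 3.71 ± 0.11, adjusted p = 6.73e-38 by edgeR). MT1X rose from 8.98, 6.95, and 2.89 CPM to 167, 167, and 175 CPM (LFC 4.80 ± 0.21, adjusted p = 3.78e-29 by edgeR). For these 3 genes, the gap between the groups was many times the spread within them. MT1B had 0, 0, and 1 counts in the non-treated libraries and 34 counts in all in cadmium, a ratio of 32.3 (95% exact interval for counting error only, 5.42 to 1314). Its adjusted p of 0.00731 by edgeR became 0.0629 without replicate 1 of non-treated cells, 0.0636 without replicate 2, and 0.0516 with no filter on low counts. Over the 12 alternatives with a value for MT1B, its LFC of 4.65 ranged from 0.22 to 6.70, so its size is uncertain. MT1G had no counts in non-treated cells and 0, 4, and 4 counts in cadmium, which was too few to test. MT1A, MT1F, MT1H, MT1L, MT1M, MT3, and MT4 were listed at 0 in all 6 libraries. Summed over the family, the level was 2765 to 2982 CPM in non-treated and 14745 to 15262 CPM in cadmium-treated cells.

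These copies resemble each other. Of the 50-base stretches in the 3′ ends of the annotated transcripts, 44.4% of MT1X, 18.4% of MT1B, 7.71% of MT2A, and 6.19% of MT1E also occur in another annotated gene, so reads may be split or dropped among them. The long non-coding RNA ENSG00000289942, on chr4:68376551-68376665 (plus strand), went from 183, 232, and 219.6 CPM to 982, 836, and 824 CPM (LFC 2.06 ± 0.13). Its 115 bases align over 99 bases to the very 3′ end of the MT2A transcript with 97 bases identical, so its counts can hold MT2A reads and its change is uncertain.

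Zinc transporters moved in a single member. SLC30A1, the exporter of zinc at the plasma membrane, rose from 36.7, 42.4, and 48.5 CPM to 253, 258, and 308 CPM, which is 6.37-fold (LFC 2.67 ± 0.13, adjusted p = 8.3e-26 by edgeR). The other 5 tested SLC30 genes had LFCs between -0.30 and 0.30 and did not pass. Among 10 tested SLC39 genes, which bring zinc and other divalent metals into the cytosol, none passed. SLC39A14, an importer of zinc, iron, manganese, and cadmium, was at 53.9, 78.2, and 79.3 CPM without and 90.9, 92.5, and 104.5 CPM with cadmium (LFC 0.44 ± 0.16, adjusted p = 0.179 by edgeR). SLC39A10 was at 13.1, 15.4, and 23.8 CPM and 12.8, 12.9, and 4.27 CPM (LFC -0.81 ± 0.30, adjusted p = 0.181 by edgeR). The groups of SLC39A10 nearly touch, with 1 low cadmium library and 1 high non-treated library. The metal sensor MTF1 itself had an LFC of 0.04.

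**Figure D2:**
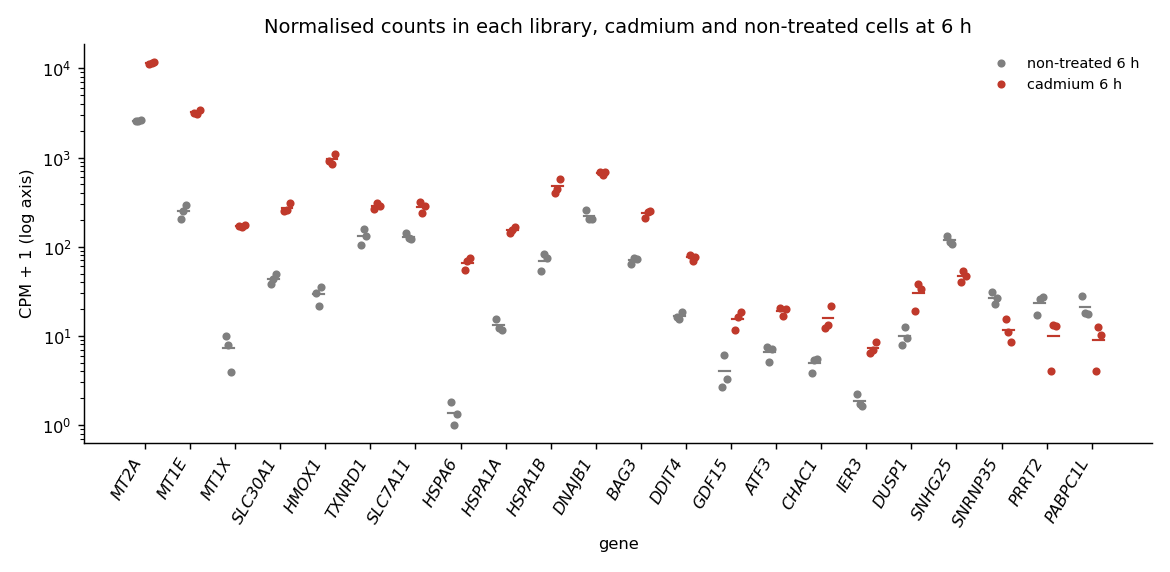
CPM + 1 (log axis) of 22 genes in the 3 non-treated (grey) and 3 cadmium-treated (red) libraries at 6 h, with lines at the means. The groups are apart in every gene shown, with MT2A between 2540 and 2646 CPM against 11285 to 11751 CPM, whereas SNHG25, SNRNP35, PRRT2, and PABPC1L are lower in cadmium.

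Inducible chaperones formed the next group. Heat-shock proteins of the HSP70 family hold unfolded proteins, and HSPA6, HSPA1A, and HSPA1B are its stress-inducible members. The sequence upstream of HSPA6 (chr1:161524290-161524539, plus strand) and HSPA1A (chr6:31815293-31815542, plus strand; RefSeq, GRCh38.p14, 5′ to 3′) is shown for the heat-shock element, the inverted repeat to which HSF1 binds. Capitals mark GAANNTTC, which reads the same on both strands.
HSPA6: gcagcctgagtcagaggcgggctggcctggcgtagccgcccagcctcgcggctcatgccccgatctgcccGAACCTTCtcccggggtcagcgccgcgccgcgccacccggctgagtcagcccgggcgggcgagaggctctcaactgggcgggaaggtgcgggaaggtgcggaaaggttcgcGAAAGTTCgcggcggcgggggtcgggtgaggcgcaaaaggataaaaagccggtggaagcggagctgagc
HSPA1A: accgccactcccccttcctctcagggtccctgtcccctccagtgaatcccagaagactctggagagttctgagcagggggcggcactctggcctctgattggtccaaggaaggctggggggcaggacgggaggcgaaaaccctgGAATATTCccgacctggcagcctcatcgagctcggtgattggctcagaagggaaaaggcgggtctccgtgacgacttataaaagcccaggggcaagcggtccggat
There were 2 matches before HSPA6 and 1 before HSPA1A, as well as 1 before HSPA1B.

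HSPA6 had 3 counts over the 3 non-treated libraries and 561 over the 3 cadmium libraries, a ratio of 178 (95% exact interval for counting error only, 60.5 to 865). In CPM, it went from 0.82, 0, and 0.32 to 53.6, 68.7, and 72.9, with an adjusted p of 1.18e-24 by edgeR. Its non-treated libraries at 6 h were below the minimum count of 10, so HSPA6 came to be tested through metal-treated libraries. Its rise was thus partly fixed in advance. HSPA1A rose from 14.3, 11.3, and 10.6 CPM to 141, 153, and 163 CPM (LFC 3.67 ± 0.20), and HSPA1B from 52.6, 80.8, and 72.9 CPM to 401, 446, and 573 CPM (LFC 2.78 ± 0.16). No library of one group reached the other in these 3 genes. HSPA1A and its neighbour HSPA1B share 6.76% of 50-base stretches in the 3′ end of HSPA1A, and reads from these cannot be assigned to one of them. Of 13 tested HSP70 and HSP110 genes, 6 rose, with the nucleotide exchange factor HSPH1 (LFC 0.97 ± 0.08), HSPA4L (0.83), and the constitutive HSPA8 (0.44) as the other members. HSPA5, the HSP70 of the endoplasmic reticulum, was at an LFC of 0.06 with an adjusted p of 0.812 by edgeR.

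Co-chaperones that feed clients to HSP70 followed in part. DNAJB1 rose from 258, 205, and 204 CPM to 681, 634, and 682 CPM (LFC 1.59 ± 0.12), DNAJB4 had an LFC of 1.75 ± 0.19, and DNAJB6 and DNAJA1 rose by 0.60 and 0.49. The other 13 of 17 tested DNAJ genes did not pass, with LFCs from -0.52 to 0.36. BAG3, which links HSP70 to autophagy, rose from 62.8, 74.2, and 72.2 CPM to 210.4, 247, and 251 CPM (LFC 1.75 ± 0.13). It was 1 of 6 genes that rose among 23 small heat-shock, BAG, and HSP90 genes, with the HSP90-binding CHORDC1 (0.85), HSP90AA1 (0.44), HSPB1 (0.40), CRYAB (0.32), and HSP90AB1 (0.30). HSPB1 no longer passed without replicate 3 of cadmium (LFC 0.33, adjusted p = 0.116 by edgeR). Of 10 chaperonin genes, HSPE1, the lid of the mitochondrial chaperonin, rose (LFC 0.59 ± 0.08) and the other 9 did not pass, at LFCs of 0.03 to 0.23. In the endoplasmic reticulum list, HERPUD1 was the single member of 24 to rise (LFC 0.65). It no longer passed without replicate 3 of cadmium (0.59, adjusted p = 0.0789) or of non-treated cells (0.65, adjusted p = 0.0535, edgeR). None of 30 proteasome subunits passed (median LFC -0.01), with the most abundant, PSMA7, at 0.04. ZFAND2A, a proteasome-associated gene known to be induced by arsenite, rose from 13.1, 6.58, and 7.06 CPM to 25.3, 27.7, and 28.4 CPM (LFC 1.63 ± 0.28).

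Heme oxygenase HMOX1, which breaks down heme, rose from 29.0, 20.8, and 34.7 CPM to 913, 853, and 1107 CPM, which is 33.8-fold (LFC 5.08 ± 0.17, adjusted p = 2.32e-36 by edgeR). It was followed in its list of 13 heme and iron genes by the ferritin heavy chain FTH1 (LFC 0.47 ± 0.08), and the other 11 had LFCs of -0.57 to 0.77 and did not pass. Other NRF2-type genes moved less. Thioredoxin reductase TXNRD1 rose from 104, 156, and 131 CPM to 266, 305, and 285 CPM (LFC 1.13 ± 0.15), and NQO1 by 0.41 ± 0.08, as 2 of 18 members. The remaining 16, with LFCs of -0.40 to 0.58, did not pass. In the list of 29 glutathione and thioredoxin genes, GCLM, the modifier subunit of the enzyme that starts glutathione synthesis, rose by 0.97 ± 0.10, and SESN2 and CHAC1 rose as well. TXNIP, which binds and inhibits thioredoxin, fell from 59.2, 54.5, and 73.2 CPM to 30.7, 33.95, and 35.9 CPM (LFC -0.90 ± 0.16). Of 11 regulators, the small Maf proteins MAFG (0.93 ± 0.14), MAFK (0.89), and MAFF (0.88) rose, and NFE2L2, which encodes NRF2, and HSF1 had LFCs of 0.12 and -0.20 and did not pass. The adjusted p of MAFF became 0.0705 without replicate 1 of non-treated cells.

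Genes of the integrated stress response, which slows protein synthesis and raises ATF4, rose in 10 of 17 cases, against 1.6% of all genes tested. The list median was 1.03, against -0.01 for all genes tested. DDIT4, an inhibitor of the growth kinase complex mTORC1, rose from 15.1, 14.3, and 17.7 CPM to 80.2, 68.7, and 76.5 CPM (LFC 2.25 ± 0.20). The stress cytokine GDF15 was at 1.63, 5.12, and 2.25 CPM without and 10.7, 15.2, and 17.4 CPM with cadmium (LFC 2.24 ± 0.37). The transcription factor ATF3 rose from 6.53, 4.02, and 6.10 CPM to 19.4, 15.6, and 18.8 CPM (LFC 1.69 ± 0.31). In each of these 3 genes, the groups lay apart. The others were CHAC1, which degrades glutathione (LFC 1.87 ± 0.36), SESN2 (1.54 ± 0.18), PPP1R15A, which directs dephosphorylation of eIF2 alpha (1.47 ± 0.17), the secreted STC2 (1.25 ± 0.12), CEBPB (1.03 ± 0.12), TRIB3 (0.72), and CEBPG (0.51). ATF4 itself had an LFC of 0.44 and an adjusted p of 0.0569, and DDIT3, which encodes CHOP, of 0.67 and 0.0928 (edgeR). The antisense transcript CEBPB-AS1 went from 0.41, 0.37, and 2.25 CPM to 11.0, 17.6, and 14.6 CPM (LFC 3.70 ± 0.65). Reads were counted by strand, but whether some reads of CEBPB were counted for CEBPB-AS1 was not tested.

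Amino acid transporters rose in 4 of 17 cases. SLC7A11, the cystine importer, went from 139.6, 124, and 120.1 CPM to 318, 239.6, and 284 CPM (LFC 1.14 ± 0.11), and its partner SLC3A2, the glutamine transporter SLC38A2, and SLC7A5 rose by 0.59, 0.76, and 0.68. SLC7A5 no longer passed without replicate 3 of cadmium (LFC 0.54, adjusted p = 0.157) or replicate 2 of non-treated cells (0.57, adjusted p = 0.108, edgeR). SLC6A9, a glycine transporter, and SLC1A4, which carries alanine, serine, and cysteine, were at LFCs of 0.57 and 0.27 with adjusted p of 0.369 and 0.595 (edgeR). Of 14 amino acid synthesis and one-carbon genes, GPT2 alone rose (0.48), and it no longer passed in 6 of 14 alternatives. The tRNA synthetases held 1 member that fell out of 20, FARSA (LFC -0.36). It no longer passed without replicate 2 or 3 of cadmium or replicate 2 of non-treated cells (adjusted p of 0.0602 to 0.127 by edgeR).

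**Figure D3:**
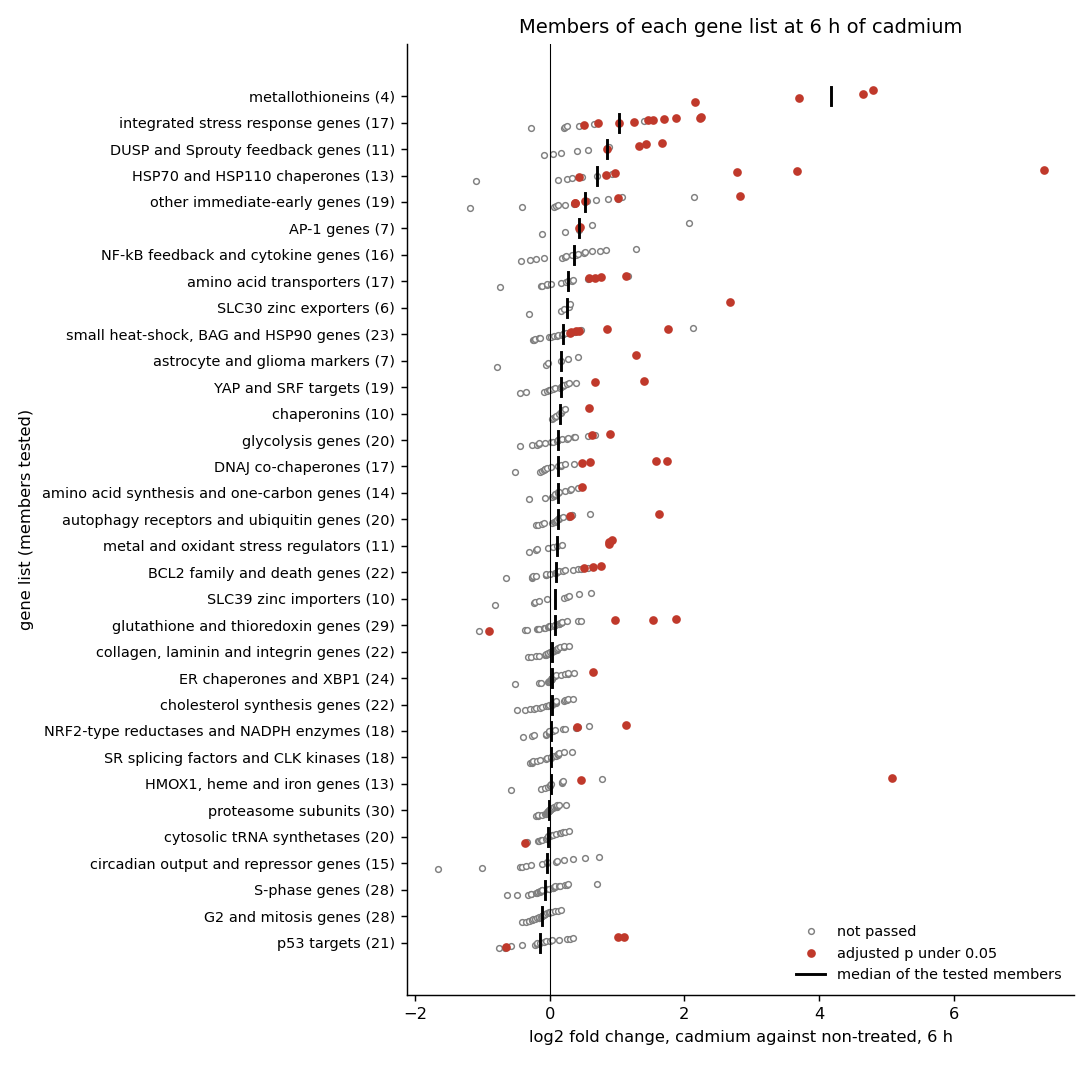
LFC of cadmium against non-treated cells at 6 h (horizontal axis) for the tested members of each gene list (rows, number of members in brackets), with filled points at an adjusted p under 0.05 and bars at the medians. The metallothioneins and the integrated stress response genes lie farthest to the right, with medians of 4.18 and 1.03, and the proteasome list stays around 0. The metallothionein median includes MT1B, which at 6 h had enough counts to be tested in the cadmium libraries alone.

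Of 11 tested DUSP and Sprouty genes, feedback regulators that damp MAP kinase signalling, DUSP1 (LFC 1.67 ± 0.32), DUSP6 (1.43 ± 0.22), DUSP5 (1.32 ± 0.22), and DUSP4 (0.85) rose. The other 7, all tested Sprouty and SPRED genes among them, did not pass, with LFCs of -0.09 to 0.88. DUSP1 was at 6.94, 11.7, and 8.35 CPM without and 18.2, 36.7, and 32.4 CPM with cadmium. DUSP4 no longer passed without replicate 3 of cadmium (0.76, adjusted p = 0.0601 by edgeR). Other immediate-early genes rose in 5 of 19 cases, led by IER3 (1.22, 0.73, and 0.64 CPM against 5.36, 5.85, and 7.47 CPM, LFC 2.82 ± 0.61) and IER5L (1.02 ± 0.19), with ZFP36L1, KLF6, and IER5 at LFCs of 0.37 to 0.53. IER3 had 3, 2, and 2 counts in the non-treated libraries at 6 h, below the minimum count of 10. Its rise may thus be partly fixed in advance. A long non-coding RNA without a symbol, ENSG00000261327, rose from 5.31, 3.29, and 3.21 CPM to 13.1, 12.1, and 12.1 CPM (LFC 1.67 ± 0.36). JUN (0.44) and JUNB (0.45) were the AP-1 genes that rose out of 7, and JUNB no longer passed in 6 of 14 alternatives. VEGFA, an angiogenic growth factor, rose from 6.12, 8.77, and 3.85 CPM to 16.1, 23.4, and 20.6 CPM (LFC 1.68 ± 0.31). In the p53 list, GADD45A (1.11 ± 0.17) and GADD45B (1.01 ± 0.11) rose and DDB2 fell (-0.64). The other 18 of 21 did not pass, with CDKN1A (0.26), MDM2 (0.04), and BAX (-0.65) among them. DDB2 no longer passed in 7 of 14 alternatives, with adjusted p up to 0.22 without replicate 1 of cadmium. The death regulators MCL1 (0.64), PMAIP1 (0.76), and TNFRSF1A (0.51) rose out of 22. TNFRSF1A no longer passed without replicate 3 of cadmium and without replicates 1 or 3 of non-treated cells (adjusted p of 0.0843 to 0.171 by edgeR). ANKRD1, a YAP target, rose from 53.1, 59.6, and 48.8 CPM to 143, 154, and 129 CPM (LFC 1.40 ± 0.12), with CCN1 (0.67) as the second member to rise out of 19. CCN1 no longer passed without replicate 3 of cadmium (0.51, adjusted p = 0.116 by edgeR). The glycolytic HK2 (0.89) and PFKFB3 (0.63) rose out of 20 genes, and HK2 no longer passed in 5 of 14 alternatives, with adjusted p of up to 0.13.

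Several programs showed no member past the test. As 1.6% of all genes tested rose and 0.446% fell by the adjusted p, lists of their size can hold none without standing out. The same holds for the proteasome and SLC39 lists above. None of 28 S-phase genes, 28 genes of G2 and mitosis, 22 of cholesterol synthesis, 22 of collagen, laminin, and integrin genes, 16 of NF-kB feedback, 18 of SR splicing factors, or 15 circadian genes passed, with list medians between -0.12 and 0.36. Among the most abundant members of these lists were LFCs of 0.15 (TYMS), -0.05 (COL1A1), -0.20 (NFKBIA), -0.29 (SRSF11), and 0.11 (CLOCK). In the G2 and mitosis list, 5 of 28 genes had a positive LFC, against 6032 of all 12341 genes tested. TOP2A, the most abundant member of that list, was at an LFC of -0.26 (adjusted p = 0.0598 by edgeR, and 0.0455 without replicate 1 of cadmium). Among the astrocyte and glioma markers, the secreted chaperone CLU rose from 40.8, 42.8, and 36.3 CPM to 117, 89.8, and 82.9 CPM (LFC 1.28 ± 0.16). The other 6 tested did not pass, with LFCs of -0.79 to 0.42.

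The 15 lower genes were fewer and of low level, as 14 had a non-treated mean under 30 CPM, and 7 had a mean under 20 counts over the 6 libraries. SNHG25, a host gene of small nucleolar RNA, was the exception and fell from 131, 111, and 107 CPM to 38.7, 52.3, and 45.5 CPM (LFC -1.36 ± 0.22, adjusted p = 1.97e-05 by edgeR). Of its 50-base stretches, 32.8% also occur in another annotated gene, so its count is uncertain to that extent. SNRNP35, a protein of the minor spliceosome, fell from 29.8, 21.9, and 25.4 CPM to 14.3, 10.1, and 7.47 CPM (LFC -1.25 ± 0.26). No library of one group reached the other in either gene. The remaining 6 lower genes whose mean count was 20 or more changed by LFCs of -1.005 to -1.48, and each lost its call when a library was left out. PRRT2 was at 15.9, 24.9, and 26.0 CPM without and 2.98, 12.1, and 11.7 CPM with cadmium, and its LFC of -1.36 became -0.91 (adjusted p = 0.151 by edgeR) without replicate 1 of cadmium and -1.23 (0.0576) without replicate 3 of non-treated cells. PABPC1L was at 26.9, 16.8, and 16.7 CPM and 2.98, 11.7, and 9.24 CPM, and its LFC of -1.37 became -0.93 (0.162) without replicate 1 of cadmium and -1.11 (0.13) without replicate 1 of non-treated cells. In both genes, the lowest value was that of the cadmium library with the low mitochondrial share. For the non-coding LINC00461 (LFC -1.48), the RNA-binding R3HDM2 (-1.08) and UNK (-1.10), and GEMIN7 (-1.005), a member of the SMN complex, the adjusted p reached 0.142, 0.096, 0.339, and 0.198 on leaving out a library, those being replicate 1 of cadmium for LINC00461, replicate 2 of cadmium for R3HDM2, replicate 2 of non-treated cells for UNK, and replicate 3 of non-treated cells for GEMIN7. The number of lower genes was 7 without replicate 3 of non-treated cells, 5 when the 6 libraries were fitted alone, and 4 with DESeq2 and ashr shrinkage.

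At the other times, cadmium was compared with non-treated libraries of the same time, so the group means are separate from those at 6 h, while the filter and the estimate of spread are shared. At 1.5 h, 0 genes passed by edgeR, and 991 had an unadjusted p under 0.05. At 3 h of cadmium, 11 genes were higher (0.0891% of those tested) and 0 lower (0%), and all 11 were among the 62 higher genes at 6 h, which is 17.7% of the 62. They were MT1X, MT1E, MT2A, ENSG00000289942, SLC30A1, HMOX1, HSPA6, HSPA1A, HSPA1B, DDIT4, and PPP1R15A. By edgeR's quasi-likelihood test 0 genes fell at 3 h at an adjusted p under 0.05 as well, against 1010 genes in either direction at an unadjusted p under 0.05, and DESeq2 was not run for 3 h alone. At 12 h, 39 of the 62 were higher (62.9%), where 153 genes were higher (1.24%) and 61 lower (0.494%) in all, so that 25.5% of the genes higher at 12 h had been higher at 6 h. At 24 h, 25 of the 62 were higher (40.3%), out of 65 (0.527%) higher and 12 (0.0972%) lower genes. The 62 genes had median LFCs of 0.53, 1.57, and 0.85 at these 3 times. Of the 15 lower genes, 0, 2, and 0 were lower at 3, 12, and 24 h, PARP16 and PRRT2 being the pair at 12 h, and their median LFCs were -0.0027, -0.29, and -0.06.

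Single genes took different courses. The LFC of MT1X was 0.99 ± 0.26 (adjusted p = 0.377 by edgeR) after 1.5 h, 3.40 ± 0.21 after 3 h, then 5.34 ± 0.19 (12 h) and 5.17 ± 0.19 (24 h). HSPA6 reached 3.57 ± 0.67 (3 h), 8.54 ± 0.28 (12 h), and 10.6 ± 0.37 (24 h), with non-treated cells near 0 at each time, so these fitted values depend on the prior count. For DDIT4, the LFCs were 1.66 ± 0.23 (3 h), 1.43 ± 0.19 (12 h), and 1.051 ± 0.20 (24 h). GRHL1, a transcription factor of the grainyhead family, did not pass at 3, 12, or 24 h, with LFCs of 0.19, 0.87, and -0.60. SNHG25 had LFCs of 0.36 at 3 h and -0.06 at 24 h, neither past the test, and fell by 0.68 on the log2 scale at 12 h (adjusted p = 0.0317 by edgeR).

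**Figure D4:**
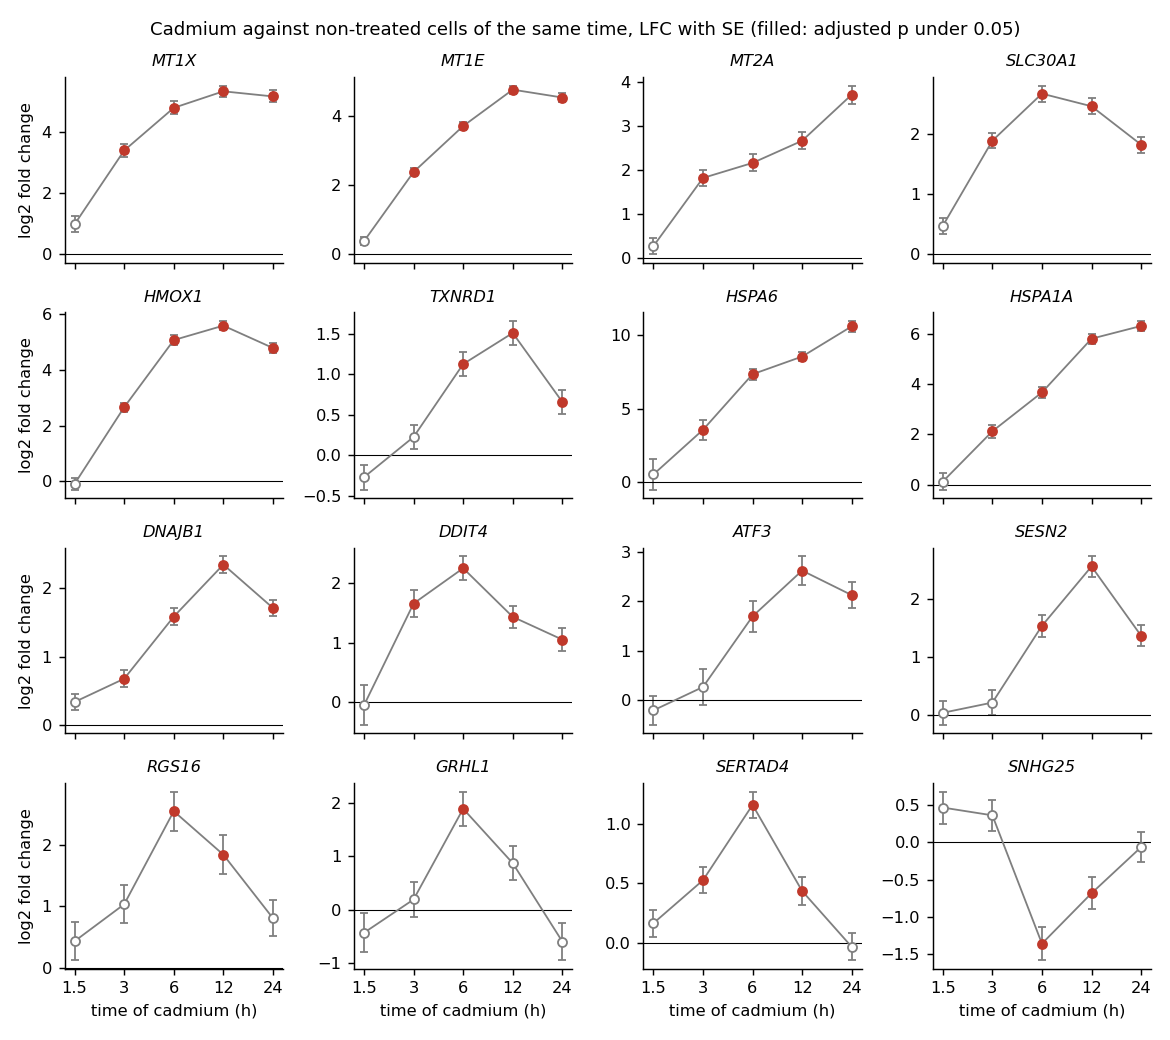
LFC ± SE of cadmium against non-treated cells of the same time for 16 genes over the 5 times (equally spaced), with filled points at an adjusted p under 0.05. HSPA6 and HSPA1A are highest at 24 h, HMOX1 and DNAJB1 at 12 h, and RGS16, GRHL1, and SERTAD4 at 6 h, and each panel has its own vertical scale.

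Whether an effect grew up to 6 h was tested as the difference between the cadmium effects at 6 and 3 h, where 11 genes were higher (0.0891%) and 6 lower (0.0486%) in the effect. These differences use the same 6 h libraries as the calls. The effect on HMOX1 grew by 2.41 ± 0.24 on the log2 scale (adjusted p = 1.44e-10 by edgeR), from 150, 141, and 130.3 CPM in cadmium at 3 h to the values above at 6 h. MT1E grew by 1.33 ± 0.15 and SNHG25 went down by 1.72 in the difference (SE 0.31). Between 12 and 6 h, 10 genes gained (0.081%) and 5 lost (0.0405%). ZFAND2A gained 2.48 ± 0.39, with 154, 128, and 158 CPM in cadmium at 12 h against 8.95, 6.18, and 9.95 CPM in non-treated cells, and HSPA1A gained 2.14 ± 0.31, with 679.6, 588, and 698 CPM against 17.6, 8.65, and 8.64 CPM. IER5L lost 1.15 ± 0.27 in the difference, standing at 32.2, 24.4, and 29.8 CPM against 27.4, 34.3, and 32.5 CPM at 12 h. The call for IER5L was lost without replicate 3 of cadmium at 6 h (adjusted p = 0.152 by edgeR) and in 6 other alternatives.

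The 6 h libraries of the other metals show which changes differed between metals. The study chose concentrations of like toxicity, as determined for a treatment longer than any here. The metals were thus matched by loss of cells at that later time and not by molarity. Set beside each other were 2.3 µM cadmium, 2.55 µM arsenic, and 20 µM mercury. Whether toxicity was alike at 6 h was not tested. The comparisons below share the cadmium libraries with each other and with the calls against non-treated cells. Directly against arsenic, 29 genes were higher in cadmium (0.235%) and 9 lower (0.0729%). Against mercury, 39 were higher (0.316%) and 41 lower (0.332%). Of the genes higher than in non-treated cells, 9 were also higher than in each of the other metals, a count given as a description: MT1B, MT1E, MT1X, SLC30A1, RGS16, GRHL1, SERTAD4, HOXC6, and the uncertain ENSG00000289942. PABPC1L was the lower gene that was below both, although 1 arsenic library, at 11.0 CPM, lay within its cadmium range.

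MT1E stood at 436, 462, and 512 CPM in arsenic and 745, 779, and 653 CPM in mercury, so cadmium was above arsenic by an LFC of 2.79 ± 0.11 and above mercury by 2.16 ± 0.10 (adjusted p = 8.72e-32 and 4.44e-26 by edgeR). MT1X was at 12.3, 16.3, and 20.3 CPM in arsenic and 24.98, 32.5, and 23.8 CPM in mercury, with LFCs of 3.38 ± 0.17 and 2.65 ± 0.16. MT1B had no counts in either metal, against 34 in cadmium, the group through which it had enough counts to be tested at 6 h. The exact 95% lower limits of the ratio, for counting error only, were 10.5 against arsenic and 10.8 against mercury. MT2A was at 3295, 3362, and 3439 CPM in arsenic and at 8613, 9312, and 4086 CPM in mercury, with LFCs of 1.78 ± 0.19 and 0.66 ± 0.19. The mercury libraries were spread far more widely than those of the other groups in this gene, and each lay below every cadmium library. For SLC30A1, the levels were 93.3, 97.5, and 97.7 CPM in arsenic and 104, 103, and 118 CPM in mercury (LFCs 1.50 ± 0.12 and 1.33 ± 0.12).

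The other 4 annotated genes above both metals encode neither metallothioneins nor transporters. RGS16, which speeds the shut-off of G proteins, rose from 4.90, 5.48, and 4.50 CPM in non-treated cells to 30.1, 31.2, and 25.6 CPM in cadmium (LFC 2.54 ± 0.32), against 6.00, 7.75, and 6.38 CPM in arsenic and 9.14, 9.29, and 9.09 CPM in mercury. GRHL1 rose from 4.08, 4.39, and 6.10 CPM to 18.2, 19.1, and 17.8 CPM (LFC 1.90 ± 0.32), with 2.67, 3.48, and 3.6 CPM in arsenic and 3.19 to 6.39 CPM in mercury. SERTAD4, which carries a SERTA domain, rose from 96.7, 96.1, and 88.0 CPM to 204, 194, and 227 CPM (LFC 1.16 ± 0.11), with 73.2 to 74.3 CPM in arsenic and 64.3 to 79.8 CPM in mercury. HOXC6, a homeobox gene, rose from 15.5, 20.8, and 11.9 CPM to 40.2, 47.2, and 50.5 CPM (LFC 1.52 ± 0.21), with 17.4 to 24.3 CPM in arsenic and 12.5 to 14.5 CPM in mercury. In all 4, each cadmium library lay above every library of the other 3 groups. The genes were picked for being higher than each of these groups, so this follows in part from the choice. Its share over all genes tested was not computed. The upstream sequences of RGS16 (chr1:182604390-182604639, minus strand) and GRHL1 (chr2:9951443-9951692, plus strand; RefSeq, GRCh38.p14, 5′ to 3′) are shown because they hold several matches of the metal response element core, in capitals as above.
RGS16: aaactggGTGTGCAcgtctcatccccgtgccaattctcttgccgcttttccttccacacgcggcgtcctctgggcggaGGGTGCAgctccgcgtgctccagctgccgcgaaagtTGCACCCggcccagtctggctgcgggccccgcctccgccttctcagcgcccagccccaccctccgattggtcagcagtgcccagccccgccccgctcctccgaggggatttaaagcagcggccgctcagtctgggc
GRHL1: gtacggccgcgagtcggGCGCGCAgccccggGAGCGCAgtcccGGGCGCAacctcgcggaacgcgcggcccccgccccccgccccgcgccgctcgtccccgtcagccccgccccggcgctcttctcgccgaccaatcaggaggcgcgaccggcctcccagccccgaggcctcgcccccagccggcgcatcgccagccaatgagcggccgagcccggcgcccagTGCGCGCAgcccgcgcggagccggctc
RGS16 had 3 matches and GRHL1 had 5, of which a pair overlaps on opposite strands at bases -27 to -20 from the start. SLC30A1 and SERTAD4 had 1 match each and MT1B had 3.

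**Figure D5:**
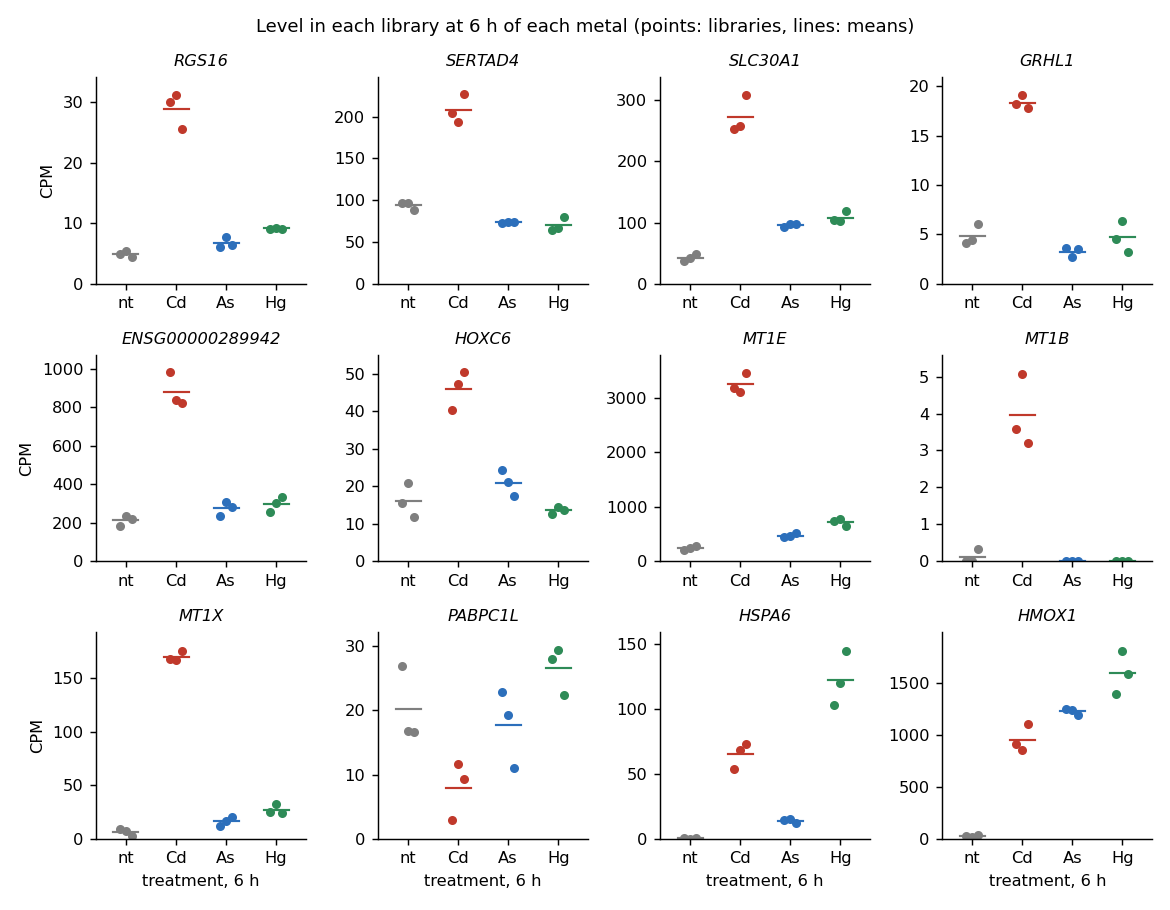
CPM in each of the 3 libraries of non-treated (nt), cadmium (Cd), arsenic (As), and mercury (Hg) treated cells at 6 h, with lines at the means, for the 10 genes apart from both metals and for HSPA6 and HMOX1. In the 9 genes picked for lying above both metals, the cadmium points lie above all others. In PABPC1L the groups of cadmium and arsenic overlap (up to 11.7 against 11.0 CPM and more), and HSPA6 and HMOX1 are highest in mercury.

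Other genes with a rise in cadmium were higher still in mercury. SESN2 stood at 119, 154, and 124 CPM in mercury (LFC of cadmium against mercury -1.11 ± 0.15), CHAC1 at 45.7, 54.0, and 23.6 CPM (-1.48 ± 0.27), ZFAND2A at 63.7, 54.0, and 58.0 CPM (-1.11 ± 0.22), and the long non-coding NMRAL2P at 21.9, 23.5, and 19.2 CPM (-1.06 ± 0.30). HSPA6 was at 14.7, 14.97, and 12.2 CPM in arsenic and 104, 120.2, and 145 CPM in mercury, so cadmium was above arsenic by 2.21 ± 0.19 and below mercury by 0.92 on the log2 scale. HMOX1 was at 1256, 1241, and 1191 CPM in arsenic, where the difference of -0.36 ± 0.13 did not pass (adjusted p = 0.211 by edgeR), and at 1398, 1809, and 1588 CPM in mercury, where the difference was -0.74 ± 0.13 (adjusted p = 3.53e-05 by edgeR). Other named differences between the metals were these. CTH, an enzyme of cysteine synthesis, was at 2.38, 3.12, and 3.56 CPM in cadmium and 10.7, 14.2, and 17.7 CPM in mercury (LFC -2.24 ± 0.35), with UNC5B (-1.86), NDRG1 (-1.70), and SMOX (-1.69) below mercury as well. NDRG1 lost this call without replicates 1 or 2 of cadmium or replicate 2 of mercury (adjusted p of 0.0613 to 0.146 by edgeR). Against arsenic, C21orf91 (-1.29), PARP16 (-1.34), DCP1B (-1.37), ULBP1 (-1.37), and RTL10 (-1.47) were lower, of which all but C21orf91 lost the call without at least 1 library. CEBPB-AS1 was above mercury by 3.46.

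Matches of the metal response element core were counted in the 250 bases before the start for the genes with an entry in the RefSeq promoter table, 48 of the 62 higher genes among them. At least 1 match was found for 21 of the 48 (43.8%), against 24.7% of 27305 promoters, and at least 3 matches for 5 of the 48 (10.4%), against 1.56%. Those 5 were MT2A, GRHL1, MT1X, MT1B, and RGS16, of which MT2A, MT1X, and MT1B lie in the same gene cluster. The 27305 promoters include those of genes not tested here. Of the 9 genes above both metals, 6 had an entry and all 6 held a match, 4 of them at least 3. MT1B, which at 6 h had enough counts to be tested in cadmium alone, is among the 5, the 6, and the 4. These counts thus rest in part on how the genes came to be tested. The lower genes had a match in 4 of 9 (44.4%), a share like that of the higher genes, with none at 3. The heat-shock element was found for 5 of the 48 (10.4%, against 5.85% of all), namely HSPA6, HSPA1A, HSPA1B, ANKRD1, and IER5L. TGACNNNGC, the core of the antioxidant response element, was found on either strand for 11 (22.9%, against 11.0%), and TGATGNAA, the amino acid response element, for ATF3 and CHAC1 (4.17%, against 3.19%). These are matches of letters in a fixed window, not measured binding.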

How the data were processed

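Gene counts of 60 libraries were used as deposited. According to the methods and labels, the authors made these counts from QuantSeq 3′ reads aligned to GRCh38 with STAR 2.7.9a and counted by strand over a GENCODE annotation, with reads over more than 1 gene left out, so genes that overlap or share sequence can be undercounted. The 92 spike-in rows held no counts. Groups were taken from the titles. In R 4.3.3, edgeR 4.0.16 was fitted to all libraries with TMM scaling, after a filter (minimum count of 10, total of 15) that kept 12341 of 62703 genes. The standard error is the size of the LFC over the root of the F statistic. The fit was tested on simulated counts. DESeq2 1.42.0 and ashr 2.2.63 were alternatives, next to other size factors and filters, models with a replicate block or of just the libraries in a comparison, each library left out, and counts without mitochondrial genes, added after the data were seen.

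Genes were named by a rule: the 20 largest rises and 10 largest falls among called genes whose mean count reached 20, of which 8 falls existed, up to 4 members of each list past the test or else its most abundant member, all tested metallothioneins, SLC30, and SLC39 genes, those the study names, and the 5 largest differences each way in the other comparisons. Further list members and genes were named after their values were seen. The comparison and the lists were chosen with earlier results of these data known. Promoter sequences and starts are from RefSeq. Genetic screen data of the study were not analysed here, and results for a few genes are not reported here.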

Additional observations from a re-analysis of the deposited data

Results flagged for a closer look

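The values below are the 5 largest differences each way, among called genes whose mean count reached 20, in the cadmium effect between 3 and 6 h and between 6 and 12 h, by a test of the difference itself (edgeR's quasi-likelihood test, Benjamini-Hochberg adjustment). From 3 to 6 h, the effect grew on the log2 scale by 2.41 for HMOX1 (adjusted p = 1.44e-10), 1.55 for HSPA1A (0.0366), 1.51 for GPRC5A (0.0257), 1.40 for MT1X (0.0405), and 1.33 for MT1E (2.7e-09). It changed by -1.14 for LSM7 (0.0123), -1.24 for AKT1S1 (0.0307), -1.30 for NDUFB7 (0.0257), -1.34 for DDX41 (0.00596), and -1.72 for SNHG25 (0.000816). Of these 10, HMOX1, MT1E, DDX41, and SNHG25 passed with each library left out in turn, and the other 6 did not.

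From 6 to 12 h, the effect grew by 2.48 for ZFAND2A (adjusted p = 8.09e-05 by edgeR), 2.14 for HSPA1A (1.52e-05), 1.95 for SGK1 (0.0262), 1.345 for AKR1C1 (0.00299), and 1.26 for DDIT3 (0.0301). It changed by -1.02 for NR2F6 (0.0303), -1.04 for C1QTNF2 (0.048), -1.06 for HARS2 (0.0383), -1.15 for ANO8 (0.0148), and -1.15 for IER5L (0.0262). Of these 10, ZFAND2A, HSPA1A, and AKR1C1 passed with each library left out in turn. SGK1, AKR1C1, C1QTNF2, and ANO8 had 6 h effects of -0.51, -0.01, 0.02, and 0.05, none past the test.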

How the results depend on the processing

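Of 101 genes named at 6 h, 75 passed, 56 of them under each of 14 alternatives and 19 not under at least 1. Of the 26 that did not pass, TOP2A and SRSF11 passed under at least 1. No gene that passed turned its direction. List members named beyond the rule were not recomputed. Against non-treated cells, the 62 higher genes became 46 with DESeq2 and ashr shrinkage and 54 with only the libraries compared, and the 15 lower genes 4 and 5. Leaving out 1 library gave 55 to 61 higher and 7 to 18 lower genes. Plain DESeq2 gave 62 and 16, with an adjusted p not available for 1914 genes.

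For the other comparisons, fitting only the libraries compared gave 2 lower genes against arsenic and 22 against mercury, and 16 and 9 for the effect at 6 against 3 h. With no filter on low counts, the latter became 28 and 20, and 16 genes gained from 6 to 12 h. DESeq2 gave 16 higher for 6 against 3 h and 9 lower for 12 against 6 h. On leaving out a library, the numbers of higher and lower genes ranged from 23 to 33 and 4 to 11 against arsenic, 28 to 57 and 27 to 69 against mercury (both highest without replicate 3 of mercury), 7 to 24 and 2 to 18 at 6 against 3 h (both highest without replicate 3 of cadmium at 3 h), and 7 to 12 and 0 to 8 at 12 against 6 h.

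Genes that had not passed turned their direction when a library was left out, with LFCs of -0.0267 to 0.0902 (PSMA7), -0.1328 to 0.0101 (COL1A1), -0.0078 to 0.2063 (CLOCK), -0.0883 to 0.387 (GAD1), -0.092 to 0.9399 (SLC39A8), -0.3445 to 0.0131 (SLC39A4), -0.257 to 0.2285 (SLC39A13), and -0.3405 to 0.0013 (SLC39A9). The cause was not tested.

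The replicate numbers showed little sign of pairing the samples. The deviations of same-numbered cadmium and non-treated libraries correlated at 0.124, 0.001, and 0.015 across genes, and 1 of 3 was highest with its own number. With so few libraries, this cannot settle whether the samples were paired. With a replicate block, 62 genes were higher and 14 lower against non-treated cells, 29 and 9 against arsenic, 41 and 42 against mercury, 11 and 7 at 6 against 3 h, and 10 and 4 at 12 against 6 h. Depth limits genes of a few counts, such as MT1B, whose ratio has a wide interval.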
